A study of Mus musculus with 14 samples.

Results

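The subunits of the oxidative phosphorylation machinery of the mitochondrion were followed through colitis-associated and sporadic colorectal tumors of the mouse. Members were the probe sets listed with a single gene symbol that begins with Ndufa, Ndufb, Ndufc, Ndufs, Ndufv, Uqcr, Cox4 to Cox8 or Atp5, or that is Sdha, Sdhb, Sdhc or Sdhd. This gave 150 of the 22626 probe sets tested and 80 of 13095 genes. The symbols cover nuclear genes of all 5 respiratory complexes, and 76 of the 80 genes encode subunits. The other 4 share only the pattern of the name: Ndufaf1, an assembly factor of complex I; Atp5s, also called Dmac2l; Cox4nb, now called Emc8, a part of the membrane protein complex of the endoplasmic reticulum; and Cox7a2l, a factor of respiratory supercomplexes. For 38 genes there was 1 probe set and for 42 there were several, up to 6, and 4 probe sets shared with another symbol were left out. Mean intensity over all arrays was at least 32 for 126 of the member probe sets and under 32 for 24. Each gene was represented by its probe set with the largest mean, and 5 genes had none that reached 32: Cox4i2, Cox6a2, Cox6b2, Cox8b and Cox8c, all isoforms of complex IV subunits.

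Oxidative phosphorylation makes most of the ATP of resting cells. Complex I takes electrons from NADH and complex II from succinate, complex III passes them to cytochrome c, complex IV passes them to oxygen, and complex V, the ATP synthase, uses the proton gradient that the pumping complexes build. Colonocytes, the absorptive cells of the colon surface, are known for burning butyrate through this chain, whereas proliferating cells often lean on glycolysis.

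CAC tumors (4 arrays, 1 mouse each) came from wild-type C57BL/6J mice that had been given azoxymethane, a carcinogen, at 10 mg/kg, and then 3 cycles of dextran sodium sulfate at 2.5% in the drinking water for 7 days with 14 days of recovery, which brings on colitis. CAC control samples (2 arrays, pools of 5 mice) were tumor-free epithelium of the distal colon from C57BL/6J mice, and the labels do not say whether those mice had been given either agent. Sporadic tumors (5 arrays, 1 mouse each) came from C57BL/6J-ApcMin/+/J mice, which carry a germline Apc mutation in every cell and received no agent named in the labels. Sporadic control samples (3 arrays, pools of 4 mice) were tumor-free distal colon epithelium of the same ApcMin/+ strain. All mice were male, all tumors came from the lower end of the large intestine and were of like size, and ages are not given. Tumors were taken whole and controls as purified epithelium, after the same incubation. All CAC arrays were of experimental block 1 and all sporadic arrays of block 2, so block and model cannot be told apart.

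Values are the authors' GCRMA intensities, which are linear and rounded to whole numbers. The arrays had median intensities between 15 and 18 and between 9342 and 9993 probe sets at 32 or above. Markers of other cell types moved with the tumor label. Beside the counts that follow, 14.2% of all probe sets were higher and 25.6% lower in CAC tumors than in CAC controls. In sporadic tumors 17.8% were higher and 28.2% lower than in sporadic controls. Of 10 fibroblast and matrix markers, 8 were higher in CAC tumors and 9 in sporadic tumors, with summed intensities of 6081 to 13949 in CAC tumors against 183 to 360 in CAC controls, and of 6503 to 13357 in sporadic tumors against 84 to 100 in sporadic controls. Of 8 myeloid markers, 6 and 7 were higher. Of 9 colonocyte markers, 7 were lower in each model, with sums of 5125 to 15846 in CAC tumors against 46719 to 59908 in CAC controls, and of 2738 to 7088 in sporadic tumors against 21868 to 23943 in sporadic controls; Aqp8 and Slc26a3 had means under 10 in both kinds of tumor. General epithelial markers (Epcam, Krt8, Krt18, Krt19, Cdh1) summed to 42726 to 51656 in CAC tumors against 54527 to 55782 in CAC controls, and to 35912 to 42799 in sporadic tumors against 46178 to 47727 in sporadic controls. All 6 proliferation markers were higher in both kinds of tumor. The part of these cell types in the results on the subunits was not tested, and fewer cells of a type and less RNA per cell cannot be told apart in bulk RNA.

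Transcripts of the respiratory chain were lower in both kinds of tumor. In CAC tumors, 90 of the 150 member probe sets fell and 3 rose against CAC controls (limma, adjusted p under 0.05), where 25.6% of all probe sets fell and 14.2% rose. In sporadic tumors, 135 fell and 3 rose against sporadic controls, where 28.2% of all probe sets fell and 17.8% rose. The median log2 change of the members was -0.46 for CAC and -0.84 for sporadic tumors, against -0.05 and -0.04 over all probe sets. Of the members, 86 fell in both models, 4 in the CAC model only, 49 in the sporadic model only and 11 in neither. Over all 22626 probe sets these counts were 4047, 1747, 2344 and 14488. Most changes were moderate: 6 members fell by at least 2-fold in CAC tumors, where 6.2% of all probe sets did, and 44 in sporadic tumors, where 8.08% did. Every tumor lay below every control for 104 members in the CAC model, where 29.1% of all probe sets did so, and for 129 in the sporadic model, where 24.6% did so. Among the 126 member probe sets with a mean of at least 32, 83 fell in CAC tumors and 123 in sporadic tumors, beside 20.2% and 27.2% of the 10227 probe sets of that brightness. In the authors' deposited table, with their own corrected p under 0.05, 77 members were listed as down and 2 as up in the CAC model, and 138 as down and 3 as up in the sporadic model.

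**Figure D1:**
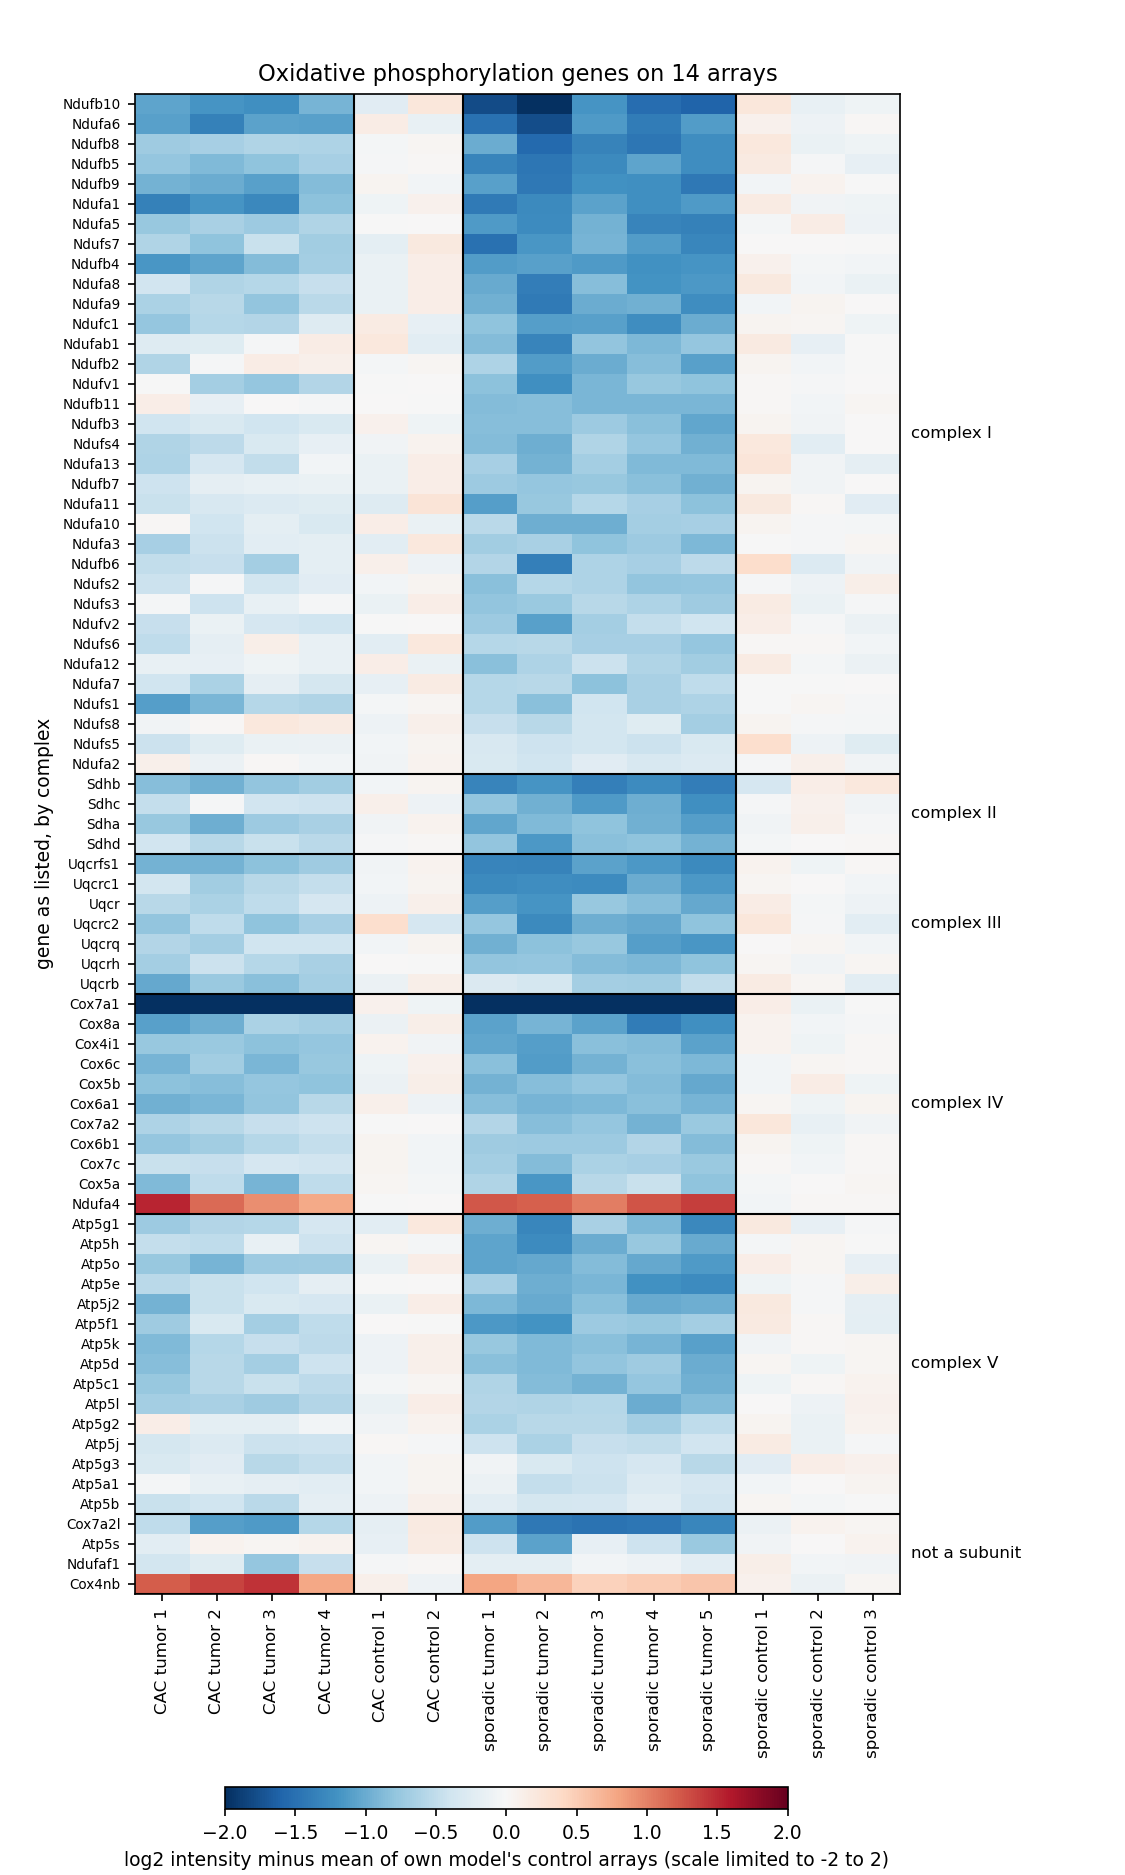
Log2 intensity of each gene (rows, the 75 genes with a mean of at least 32, grouped by complex) on each of the 14 arrays (columns), as the difference from the mean of the control arrays of the same model; blue is lower and red is higher, and the color scale ends at -2 and 2. Nearly all rows are blue in both kinds of tumor and deeper in sporadic tumors; Ndufa4 and Cox4nb are red on all tumor arrays, and Cox7a1 is beyond the scale.

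The member promoters were searched for motifs of regulators known to bind respiratory genes: NRF1, nuclear respiratory factor 1, a different protein from Nfe2l2; GABP, an ETS factor also called NRF2; and ERRA, an orphan nuclear receptor. Of the 76 subunit genes, 62 matched the RefSeq promoter table (GRCm38.p6) with 67 windows of 300 bases, of which 250 lie before the start. Promoters of 1 chromosome were left out of all these counts. The NRF1 letters GCGCATGCG were on either strand in 8 member promoters (11.9%) and in 1.75% of all 32851 promoters. The ETS core CCGGAAG was in 16 (23.9%) and in 8.86% of all. The ERRA letters TCAAGGTCA were in 2 (2.99%, Atp5g3 and Sdhd) and in 0.423% of all. The TATA box TATAAA was in 7 (10.4%) and in 13.6% of all. Motifs may overlap within a window, and a match is only a run of letters. The 250 bases before the start are shown for 4 genes that span the changes described further on, with NRF1 and ETS matches in capitals. Cox6a1 and Sdhd fell in both models, Cox7a1 fell the most and Ndufa4 rose. The NRF1 run of Cox6a1 reads the same on both strands, so it holds a match on each. No searched NRF1 or ETS letters are in the Cox7a1 and Ndufa4 windows. Nor are any in the 250 bases before the start of Uqcrc1, which fell in both models, though its window of 300 bases holds NRF1 letters. Whether the motifs go with the changes was not tested.
Cox6a1, chr5:115348959-115349208, minus strand: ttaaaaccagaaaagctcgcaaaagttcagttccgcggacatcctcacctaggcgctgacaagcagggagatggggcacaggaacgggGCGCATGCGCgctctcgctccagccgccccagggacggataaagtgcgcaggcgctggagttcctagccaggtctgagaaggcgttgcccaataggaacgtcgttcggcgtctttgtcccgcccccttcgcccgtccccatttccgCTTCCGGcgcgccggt
Sdhd, chr9:50603850-50604099, minus strand: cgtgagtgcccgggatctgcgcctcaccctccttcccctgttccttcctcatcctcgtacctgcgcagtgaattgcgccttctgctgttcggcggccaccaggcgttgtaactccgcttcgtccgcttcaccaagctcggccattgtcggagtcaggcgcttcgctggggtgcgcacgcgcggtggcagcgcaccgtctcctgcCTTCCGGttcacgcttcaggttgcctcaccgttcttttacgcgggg
Cox7a1, chr7:30183921-30184170, plus strand: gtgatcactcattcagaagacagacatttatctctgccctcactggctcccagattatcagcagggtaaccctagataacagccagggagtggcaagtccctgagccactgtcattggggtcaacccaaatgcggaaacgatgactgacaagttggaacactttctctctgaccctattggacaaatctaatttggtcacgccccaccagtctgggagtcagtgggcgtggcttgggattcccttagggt
Ndufa4, chr6:11907451-11907700, minus strand: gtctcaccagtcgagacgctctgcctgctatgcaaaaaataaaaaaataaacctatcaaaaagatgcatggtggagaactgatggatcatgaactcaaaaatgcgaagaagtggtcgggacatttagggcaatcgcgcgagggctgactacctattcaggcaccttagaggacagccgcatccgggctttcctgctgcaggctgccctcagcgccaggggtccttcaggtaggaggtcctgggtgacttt

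Complex I, the NADH dehydrogenase, is built of core subunits that carry electrons and many accessory subunits around them. All 34 of its genes fell in sporadic tumors, with a median log2 change of -0.85, whereas 15 of 34 fell in CAC tumors, with a median of -0.38. The accessory subunits gave 13 of 27 genes that fell in CAC tumors and 27 of 27 in sporadic tumors. The 7 nuclear core subunits gave 2 in CAC tumors, Ndufs1 and Ndufs7, and 7 in sporadic tumors. Beside these counts and those of the complexes below, 25.6% of all probe sets fell in CAC tumors and 28.2% in sporadic tumors. The core count in CAC tumors was near that share. Of the 5 core genes that did not pass in CAC tumors, the one with the highest value was Ndufs8, which carries iron-sulfur clusters, at a log2 change of 0.08 ± 0.11 (adjusted p = 0.657).
Ndufb10, an accessory subunit of the membrane arm, had intensities of 1145, 1052, 1019 and 1255 in CAC tumors, against 2037 and 2781 in CAC controls. It had 761, 612, 1164, 917 and 874 in sporadic tumors, against 3098, 2396 and 2488 in sporadic controls. Tumors and controls did not overlap in either model, and the log2 changes were -1.10 ± 0.22 (SE, adjusted p = 0.00279) and -1.64 ± 0.19 (adjusted p = 4.19e-05), the deepest of the complex I genes in sporadic tumors. Ndufa6, an accessory subunit of the LYR family, had 832, 694, 849 and 834 in CAC tumors, against 1960 and 1606 in CAC controls, and fell 2.22-fold (adjusted p = 0.000352). In sporadic tumors it had 647, 536, 835, 689 and 841, against 1929, 1699 and 1850 in sporadic controls, and fell 2.61-fold (adjusted p = 2.03e-05). The lowest control was above the highest tumor in both models. Ndufa1, a small X-linked accessory subunit needed for assembly, had 1817, 2049, 1893 and 2608 in CAC tumors, against 4368 and 4887 in CAC controls, a 2.23-fold fall (adjusted p = 9.64e-05). In sporadic tumors it had 2312, 2549, 2947, 2642 and 2815, against 6939, 5858 and 5814 in sporadic controls, a 2.34-fold fall (adjusted p = 1.35e-05). The difference between the 2 changes of Ndufa1 was 0.07 ± 0.19 (SE) on the log2 scale and did not pass (adjusted p = 0.919). Ndufb9, another accessory subunit, fell by 0.97 ± 0.10 and 1.27 ± 0.08 on the log2 scale (adjusted p = 1.74e-05 and 3.12e-07). Ndufb8, a further membrane arm subunit, had 673, 695, 728 and 722 in CAC tumors, against 1078 and 1130 in CAC controls, a 1.57-fold fall (adjusted p = 0.00341). Ndufb8 in sporadic tumors had 640, 436, 507, 469 and 543, against 1486, 1163 and 1208 in sporadic controls, a 2.48-fold fall (adjusted p = 5.18e-06). All tumors lay below all controls, and sporadic tumors ran lower than CAC tumors. Ndufs1, the largest core subunit, had 416, 477, 606 and 590 in CAC tumors, against 872 and 921 in CAC controls, and fell by 0.80 ± 0.15 (adjusted p = 0.00157). Ndufs1 in sporadic tumors fell by 0.61 ± 0.12 (adjusted p = 0.00215).
Ndufb11, an accessory subunit encoded on the X chromosome, took another course by its brightest probe set. It had 1680, 1368, 1553 and 1519 in CAC tumors, against 1549 and 1528 in CAC controls, and the log2 change was -0.01 ± 0.06 (adjusted p = 1.0). It had 1190, 1198, 1144, 1142 and 1140 in sporadic tumors, against 2186, 2085 and 2208 in sporadic controls, a 1.86-fold fall (adjusted p = 1.59e-07). The groups overlapped in the CAC model and stood apart in the sporadic model. The authors listed its dimmer probe sets as down 1.27-fold and 1.17-fold in CAC tumors, neither at a corrected p under 0.05.

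Complex II, succinate dehydrogenase, has 4 subunits and also serves in the tricarboxylic acid cycle. In CAC tumors 3 of 4 fell, with a median of -0.63, and in sporadic tumors 4 of 4, with a median of -0.99. Sdha, the flavoprotein that oxidizes succinate, had 961, 828, 984 and 1030 in CAC tumors, against 1548 and 1700 in CAC controls (log2 change -0.78 ± 0.10, adjusted p = 0.000107). It had 834, 933, 982, 889 and 805 in sporadic tumors, against 1635, 1838 and 1698 in sporadic controls (-0.96 ± 0.08, adjusted p = 4.31e-06). Sdhb, the iron-sulfur subunit, had 939, 875, 986 and 1044 in CAC tumors, against 1631 and 1766 in CAC controls, a 1.77-fold fall (adjusted p = 0.000522). Both catalytic subunits thus had all tumors below all controls, and this held for Sdhb in the sporadic model too. Sdhb had 829, 910, 800, 866 and 794 in sporadic tumors, against 1638, 2250 and 2372 in sporadic controls, a 2.46-fold fall (adjusted p = 3.62e-06). Sdhd, a membrane anchor whose promoter is printed above, had 868, 769, 827 and 773 in CAC tumors, against 1106 and 1152 in CAC controls (-0.48 ± 0.09, adjusted p = 0.00169). In sporadic tumors Sdhd had 894, 696, 864, 884 and 799, against 1499, 1554 and 1561 in sporadic controls, a 1.87-fold fall (adjusted p = 3.81e-06). Sdhc, the other anchor, was the exception in the CAC model. It had 503, 692, 537 and 526 in CAC tumors, against 754 and 651 in CAC controls, so that the groups overlapped (log2 change -0.32 ± 0.14, adjusted p = 0.0908). It had 969, 864, 765, 851 and 715 in sporadic tumors, against 1654, 1775 and 1599 in sporadic controls (-1.02 ± 0.12, adjusted p = 4.72e-05). Without CAC tumor 2 the CAC change of Sdhc was -0.43 and passed (adjusted p = 0.0162), and a dimmer Sdhc probe set passed in both models (-0.69 ± 0.15 and -0.84 ± 0.13).

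Complex III, the cytochrome bc1 complex, fell as a whole: 7 of 7 genes in CAC tumors, with a median of -0.58, and 7 of 7 in sporadic tumors, with a median of -0.97. Uqcrfs1, the Rieske iron-sulfur protein, had 1548, 1548, 1692 and 1835 in CAC tumors, against 2840 and 3156 in CAC controls, a 1.81-fold fall (adjusted p = 3.24e-05). It had 1624, 1614, 1937, 1823 and 1685 in sporadic tumors, against 4242, 3831 and 4119 in sporadic controls, a 2.34-fold fall (adjusted p = 2.87e-07). No array overlapped between tumor and control in either model. Uqcrc1, a core protein, had 1203, 965, 1057 and 1120 in CAC tumors, against 1503 and 1619 in CAC controls, a 1.44-fold fall (adjusted p = 0.00124). In sporadic tumors it had 964, 981, 976, 1178 and 1057, against 2404, 2358 and 2240 in sporadic controls, a 2.27-fold fall (adjusted p = 5.37e-07). The tumor values of the models overlapped and the control values did not. Uqcrh, the hinge protein, fell by 0.58 ± 0.06 and 0.82 ± 0.05 on the log2 scale (adjusted p = 4.55e-05 and 4.73e-07), and Uqcr, now Uqcr11, fell 1.42-fold and 1.97-fold (adjusted p = 0.00834 and 2.94e-05). Uqcrb, which binds ubiquinone, fell 1.77-fold in CAC tumors and 1.41-fold in sporadic tumors by its brighter probe set (adjusted p = 0.00126 and 0.00698). By the dimmer one it fell 2.25-fold and 2.73-fold, so the probe sets differ on which model had the deeper fall. Uqcrc2, the other core protein, fell in CAC tumors by both of its probe sets, and the call of the brighter one rested on 1 array. The dimmer had 1145, 1131, 1158 and 1278 in CAC tumors, against 2199 and 1797 in CAC controls, a 1.69-fold fall (adjusted p = 0.000743). The brighter had 2843, 3429, 2800 and 3093 in CAC tumors, against 6188 and 3881 in CAC controls (-0.69 ± 0.20, adjusted p = 0.0161), and without CAC control 1 the change was -0.36 (adjusted p = 0.235).

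In complex IV, cytochrome c oxidase, all 9 common subunits fell in both models, with median log2 changes of -0.78 in CAC tumors and -0.89 in sporadic tumors. Cox4i1, the common form of subunit 4, had 4208, 4234, 4014 and 4162 in CAC tumors, against 7442 and 6791 in CAC controls, a 1.71-fold fall (adjusted p = 1.91e-05). It had 4036, 3854, 4620, 4530 and 3956 in sporadic tumors, against 8709, 7757 and 8362 in sporadic controls, a 1.97-fold fall (adjusted p = 4.79e-07). The tumors of each model thus sat well below their controls, with little spread. Cox6a1, the liver-type subunit 6a, had 7605, 7880, 8584 and 10036 in CAC tumors, against 15768 and 13843 in CAC controls, a 1.74-fold fall (adjusted p = 8.09e-05). In sporadic tumors it had 9488, 9011, 9227, 9594 and 9034, against 17611, 16105 and 17868 in sporadic controls, a 1.85-fold fall (adjusted p = 7.53e-06). Cox8a, a small subunit, fell 1.79-fold in CAC tumors and 2.20-fold in sporadic tumors (adjusted p = 0.00126 and 3.42e-05). Cox6b1 and Cox7a2 fell too, by 0.63 ± 0.09 and 0.51 ± 0.11 in CAC tumors and by 0.72 ± 0.07 and 0.78 ± 0.09 in sporadic tumors on the log2 scale.
Of the 6 genes for tissue isoforms, Cox7a1 alone had a mean of at least 32, and it fell in both models. Cox7a1, the form of subunit 7a known from heart and skeletal muscle and brown fat, had intensities of 18, 40, 21 and 72 in CAC tumors, against 442 and 395 in CAC controls. It had 24, 14, 25, 20 and 23 in sporadic tumors, against 607, 506 and 553 in sporadic controls. The falls were 12.9-fold (log2 -3.69 ± 0.47, adjusted p = 0.000106) and 26.7-fold (-4.74 ± 0.39, adjusted p = 3.12e-06), the largest of any member in both models. Sporadic tumor means lie near the lower end of the scale, where rounding to whole numbers is coarse. Beside it, 4 of 10 striated muscle markers were lower in CAC tumors and 6 in sporadic tumors, though 9 of 10 had means under 10 in CAC tumors, sporadic tumors and sporadic controls and 8 of 10 in CAC controls. The one well above that level was Acta1, with 39, 36, 32 and 52 in CAC tumors against 124 and 33 in CAC controls, and 29, 18, 45, 37 and 82 in sporadic tumors against 1332, 1156 and 1383 in sporadic controls. Of 9 smooth muscle markers, 2 and 3 were higher in the tumors and none was lower. Over all probe sets, 14.2% were higher and 25.6% lower in CAC tumors, and 17.8% higher and 28.2% lower in sporadic tumors. The smooth muscle count in CAC tumors was near that share. The part of muscle cells in the Cox7a1 values was not tested. Cox6a2 was listed at 5 and Cox8c at 3 on every array, Cox4i2 at 5 to 6 and Cox8b at 6 to 9. Cox6b2, the testis form, had 12, 17, 16 and 40 in CAC tumors, against 9 and 8 in CAC controls, and 14, 15, 11, 11 and 11 in sporadic tumors, against 7, 7 and 6 in sporadic controls. These passed as higher (adjusted p under 0.05), but with an offset of 16 before log2 they did not (adjusted p = 0.0615 and 0.175).
Ndufa4, first taken for a subunit of complex I and now counted with complex IV, rose. It had 2752, 2112, 1833 and 1612 in CAC tumors, against 950 and 967 in CAC controls, a 2.12-fold rise (log2 1.09 ± 0.17, adjusted p = 0.000465). It had 1871, 1803, 1609, 1884 and 2052 in sporadic tumors, against 761, 802 and 803 in sporadic controls, a 2.33-fold rise (1.22 ± 0.14, adjusted p = 4.53e-05). Every tumor was above every control, and Ndufa4 was the only subunit gene with a mean of at least 32 that rose in either model.

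**Figure D2:**
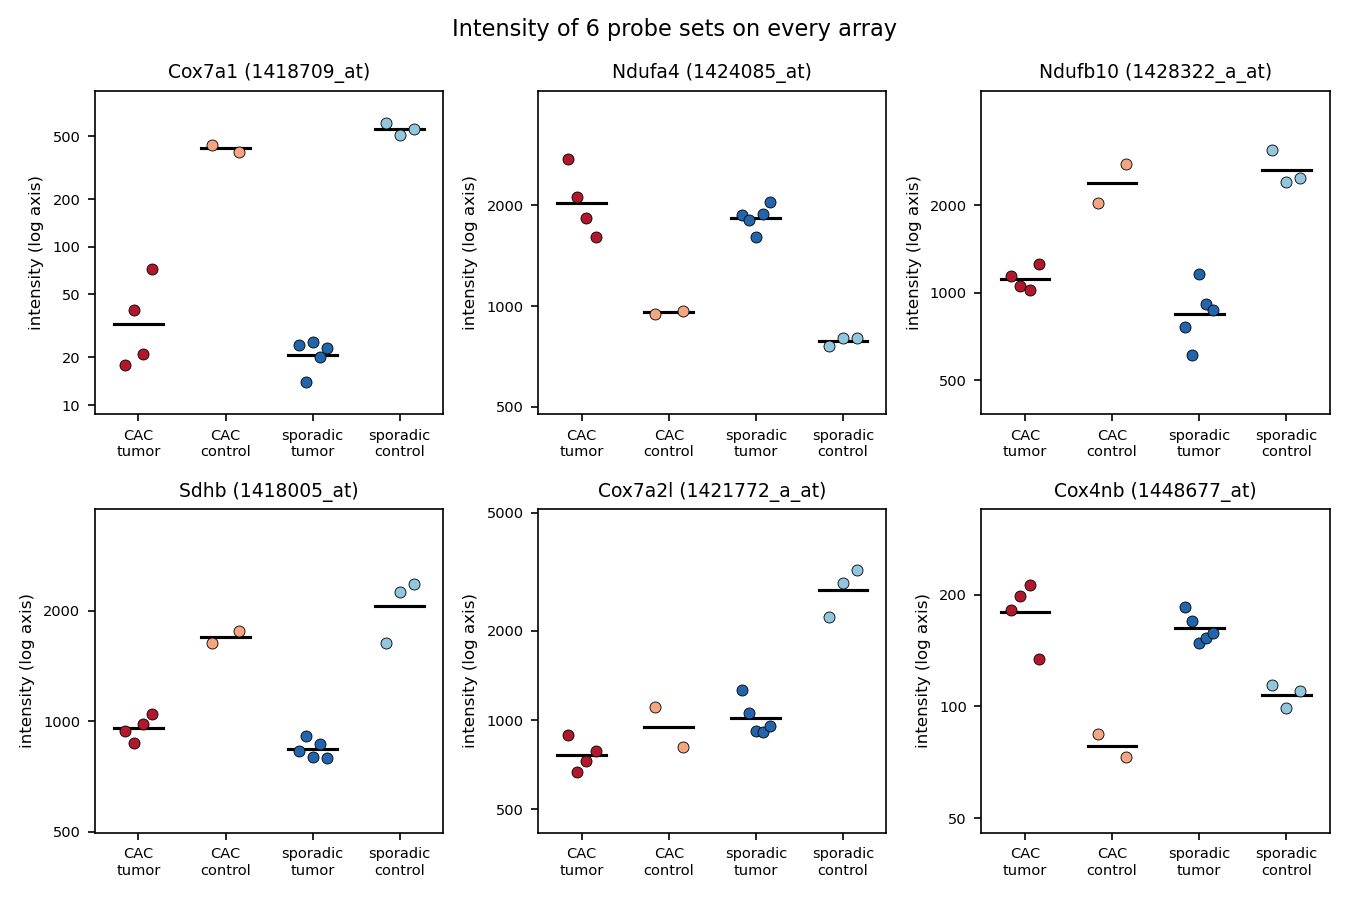
Intensity (log axis) of 6 member probe sets on each array, with CAC tumor, CAC control, sporadic tumor and sporadic control from left to right; points are arrays and bars are geometric means. Cox7a1, Ndufb10 and Sdhb are lower in both kinds of tumor and Ndufa4 and Cox4nb are higher, while for Cox7a2l the CAC controls lie with the tumors.

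Complex V, the ATP synthase, gave 11 of 15 genes that fell in CAC tumors, with a median of -0.51, and 15 of 15 in sporadic tumors, with a median of -0.84. All 4 genes of the peripheral stalk and all 3 of the remaining membrane subunits fell in both models. Of the 5 genes of the F1 head, 3 fell in CAC tumors and 5 in sporadic tumors. Atp5o, which joins the stalk to the head, had 2150, 1896, 2199 and 2213 in CAC tumors, against 3307 and 3975 in CAC controls, a 1.72-fold fall (adjusted p = 0.000155). It had 1715, 1743, 1943, 1749 and 1616 in sporadic tumors, against 3893, 3638 and 3172 in sporadic controls, a 2.03-fold fall (adjusted p = 4.03e-06). The catalytic subunit Atp5b moved little: it had 4716, 4864, 4451 and 5669 in CAC tumors, against 6007 and 6913 in CAC controls, a 1.31-fold fall (adjusted p = 0.00512). In sporadic tumors it had 5890, 5367, 5429, 5927 and 5256, against 7066, 6692 and 6796 in sporadic controls, a 1.23-fold fall (adjusted p = 0.0084). Groups did not overlap even at this small step. Atp5h, a stalk subunit, had 2929, 2857, 3688 and 3069 in CAC tumors, against 4211 and 3961 in CAC controls (-0.39 ± 0.13, adjusted p = 0.0294). It had 2694, 2339, 2841, 3320 and 2786 in sporadic tumors, against 5498, 5756 and 5615 in sporadic controls (-1.02 ± 0.11, adjusted p = 1.93e-05). Sporadic controls stood above all other arrays for Atp5h.
The genes Atp5g1, Atp5g2 and Atp5g3 encode the same mature subunit of the proton-driven c ring. Atp5g1 had 1413, 1553, 1565 and 1846 in CAC tumors, against 2012 and 2705 in CAC controls (-0.56 ± 0.20, adjusted p = 0.0436). Without CAC control 2 the change was -0.34. That call was also lost with quantile normalization (adjusted p = 0.0546), in a fit to the CAC arrays alone (0.0734) and without CAC tumor 1, 2 or 3. Atp5g1 fell 2.04-fold in sporadic tumors (adjusted p = 0.000455). Atp5g2 had 2374, 1886, 1887 and 2089 in CAC tumors, against 2070 and 2266 in CAC controls, which overlapped (-0.08 ± 0.09, adjusted p = 0.589), and fell by 0.58 ± 0.08 in sporadic tumors (adjusted p = 0.000146). Atp5g3 changed by -0.39 ± 0.14 in CAC tumors (adjusted p = 0.05) and fell by 0.33 ± 0.12 in sporadic tumors (adjusted p = 0.0419), a call lost with quantile normalization and without several single arrays. The CAC change of Atp5g3 passed in several alternatives, among them quantile normalization (-0.44, adjusted p = 0.0429). Atpif1, the inhibitor of the synthase, changed by -0.12 ± 0.13 in CAC tumors (adjusted p = 0.544) and fell by 0.33 ± 0.11 in sporadic tumors (adjusted p = 0.0367).

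**Figure D3:**
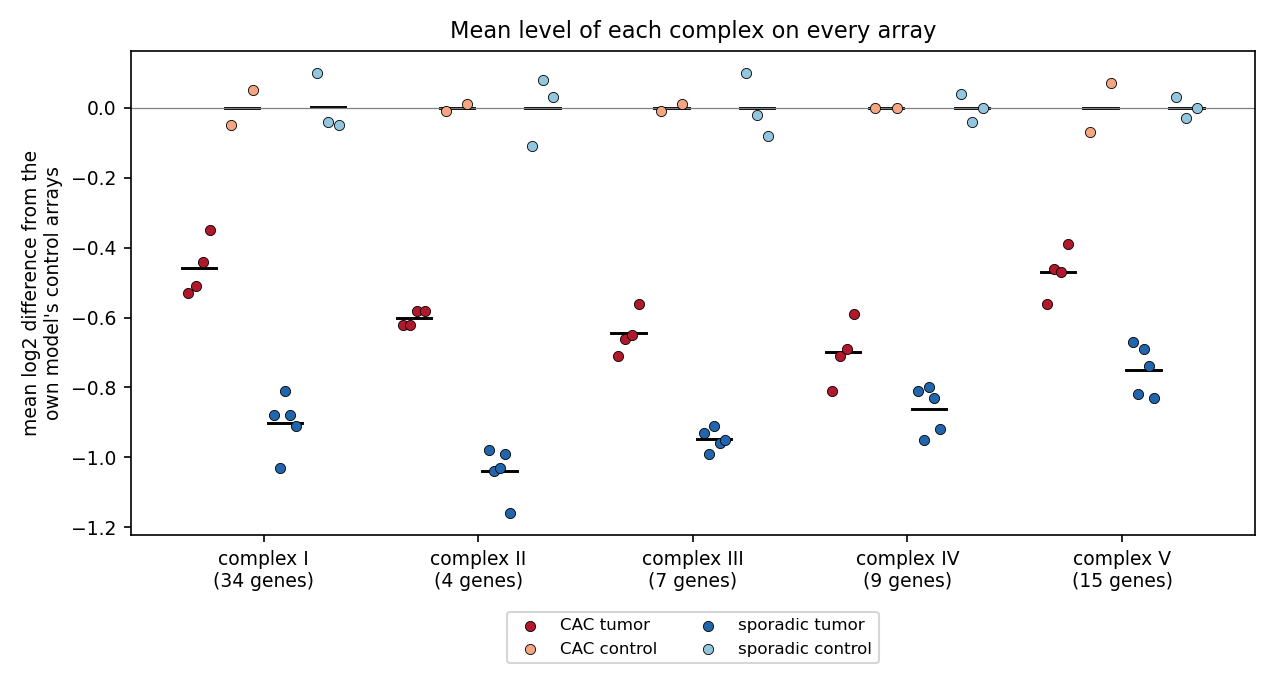
Mean log2 difference of the genes of each complex from the control arrays of the same model, 1 point per array and a bar for the group mean; complex IV is shown over its 9 common subunits. All tumors lie below all controls in every complex, from -0.35 to -0.81 in CAC tumors and from -0.67 to -1.16 in sporadic tumors.

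The mean over the genes of a complex was taken on each array. Complex I ran from -0.53 to -0.35 in the CAC tumors and from -1.03 to -0.81 in the sporadic tumors, each on the log2 scale against its own controls. Complex II ran from -0.62 to -0.58 in CAC tumors and from -1.16 to -0.98 in sporadic tumors. Complex III ran from -0.71 to -0.56 in CAC tumors and from -0.99 to -0.91 in sporadic tumors. The 2 kinds of tumor did not overlap in these complexes or in complex V, at -0.56 to -0.39 in CAC tumors and -0.83 to -0.67 in sporadic tumors. The common subunits of complex IV ran from -0.81 to -0.59 in CAC tumors and from -0.95 to -0.80 in sporadic tumors, which overlapped. These positions rest on the mean of 2 CAC controls and 3 sporadic controls.

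Of the 4 genes that are no subunit, Cox4nb (Emc8) rose. It had 182, 199, 213 and 134 in CAC tumors, against 84 and 73 in CAC controls, a 2.29-fold rise (adjusted p = 0.000186). It had 185, 170, 148, 153 and 158 in sporadic tumors, against 114, 99 and 110 in sporadic controls, a 1.51-fold rise (adjusted p = 0.00458). Ndufaf1 fell in CAC tumors (-0.46 ± 0.12, adjusted p = 0.00854) and changed by -0.15 ± 0.10 in sporadic tumors (adjusted p = 0.241). Atp5s changed by -0.01 ± 0.21 in CAC tumors (adjusted p = 1.0) and fell by 0.56 ± 0.18 in sporadic tumors (adjusted p = 0.0221). That Atp5s call was lost without sporadic control 2 (adjusted p = 0.0582), without sporadic control 3 (0.0734) and in a fit to the sporadic arrays alone (0.0631). Cox7a2l had 892, 667, 728 and 784 in CAC tumors, against 1108 and 811 in CAC controls, for the middle of its 3 probe sets by brightness (-0.31 ± 0.19, adjusted p = 0.226). It had 1266, 1057, 918, 910 and 956 in sporadic tumors, against 2229, 2898 and 3219 in sporadic controls, a 2.71-fold fall (adjusted p = 3.18e-05). C57BL/6 mice are known to carry a shortened Cox7a2l allele, and both strains here have that background. The dimmest probe set of Cox7a2l gave -0.38 ± 0.18 and -1.33 ± 0.15, and the brightest fell in both models (-0.83 ± 0.19 and -1.35 ± 0.16); its CAC change without CAC control 2 was -0.64 (adjusted p = 0.074).

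The difference between the 2 changes, each taken within its own model, was tested directly. The change was higher, that is less deep, in the CAC model for 19 members and lower for 4, where 3.5% and 4.2% of all probe sets were called. The 4 lower ones all had means under 32. Among the 126 brighter members the CAC change was above the sporadic change in 119, with a median difference of 0.39, and 18 passed as higher and 0 as lower (limma). Of all 10227 probe sets of that brightness, 379 passed as higher and 251 as lower, with a median difference of 0.06. Over all probe sets the median difference was 0.0. Of the members that passed as higher, the largest differences were those of the middle and dimmest probe sets of Cox7a2l (1.13 ± 0.25 and 0.95 ± 0.24, adjusted p = 0.0171 and 0.0334) and Ndufb11 (0.88 ± 0.08, adjusted p = 1.58e-05). Next among those that passed came a dimmer probe set of Ndufs8 (0.73 ± 0.15, adjusted p = 0.0128), Sdhc (0.69 ± 0.18, adjusted p = 0.0461), Uqcrc1 (0.66 ± 0.12, adjusted p = 0.00674) and Ndufb8 (0.66 ± 0.18, adjusted p = 0.0488). Several of these calls were fragile, and the dimmer probe set of Sdhc did not pass. With quantile normalization the adjusted p was 0.0631 for Ndufb8, 0.075 for Sdhc and 0.0582 for the dimmest Cox7a2l probe set, and all of them were also lost without most single arrays. Without CAC control 2 the middle Cox7a2l probe set gave 0.90 (adjusted p = 0.0848), and without CAC control 1 Ndufs8 gave 0.64 (adjusted p = 0.0558). Cox7a1, at 1.04 ± 0.61, did not pass (adjusted p = 0.348), nor did Ndufb2 at 0.84 ± 0.25 (adjusted p = 0.0802) or a probe set of Ndufab1 at 0.83 ± 0.24 (adjusted p = 0.066). With the dimmer part of all probe sets left out before the fit, only 2 members were higher and 0 lower. Of the 11313 probe sets kept, 225 were then higher and 195 lower. The count of members called as higher thus depended on which probe sets were fitted. With arrays centred on the median of the brighter probe sets, a choice made after seeing the data, 10 members were higher and 4 lower. Of all 22626 probe sets, 545 were then higher and 1198 lower. Single arrays mattered here: 10 members were higher without CAC tumor 3, 12 without CAC tumor 4 and 11 without sporadic tumor 5.
The controls differed as well. In CAC controls 31 members were lower and 5 higher than in sporadic controls, where 6.4% of all probe sets were lower and 7.61% higher; all 5 higher ones had means under 32. The largest that passed as lower were the same 2 probe sets of Cox7a2l, at 1108 and 811 in CAC controls against 2229, 2898 and 3219 in sporadic controls for the middle one (-1.54 ± 0.20, adjusted p = 0.000393), and Sdhc (-1.26 ± 0.15, adjusted p = 0.000191). In a fit to the control arrays alone the middle Cox7a2l probe set did not pass (adjusted p = 0.0608). The dimmer Sdhc probe set did not pass between the controls in the fit to all arrays. Ndufb11 was lower in CAC controls by its brightest probe set (-0.49 ± 0.07, adjusted p = 0.000507) and by the dimmest (-0.95 ± 0.13, adjusted p = 0.000476). Over the brighter probe sets as a whole the median difference between controls was -0.11. With centred arrays 18 members were lower and 17 higher. Over all 22626 probe sets, 1230 were then lower and 8009 higher, and the median moved to 0.19. The counts of members thus turned on the scaling. With either scaling, members were lower more often and higher less often than probe sets as a whole. Without CAC control 1, 12 members were lower, and without sporadic control 1, 20 were.
Between the tumors, 24 members were higher and 5 lower in CAC tumors than in sporadic tumors, where 7.88% of all probe sets were higher and 7.58% lower. With centred arrays, 56 members were higher and 4 lower, where 6337 of all 22626 probe sets were higher and 1707 lower. The count of lower members was 2 without CAC tumor 3 and 3 without CAC tumor 1, sporadic tumor 3, 4 or 5, or any of the sporadic controls. Ndufs7 had 960, 903, 1021 and 1000 in CAC tumors, against 625, 593, 719, 619 and 717 in sporadic tumors, for the dimmer of its probe sets (0.57 ± 0.06, adjusted p = 0.000173). The other Ndufs7 probe set gave -0.18 ± 0.12 (adjusted p = 0.391), so the probe sets of this gene differ in sign. Ndufb11 likewise differed in sign between probe sets (0.39 ± 0.05 for the brightest and -0.38 ± 0.09 for the dimmest, adjusted p = 0.000324 and 0.0203). Atp5e, the epsilon subunit of the synthase, had 1368, 1458, 1506 and 1760 in CAC tumors, against 1312, 1048, 1096, 896 and 863 in sporadic tumors (0.56 ± 0.12, adjusted p = 0.00988). Ndufb7 had 1021, 1209, 1224 and 1242 in CAC tumors, against 858, 830, 843, 793 and 732 in sporadic tumors (0.53 ± 0.07, adjusted p = 0.000789). In the other direction, Sdhc had 503, 692, 537 and 526 in CAC tumors, against 969, 864, 765, 851 and 715 in sporadic tumors (-0.56 ± 0.11, adjusted p = 0.00564). Its dimmer probe set did not pass between the tumors. All of these differences between models cannot be told apart from a difference between experimental blocks.

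**Figure D4:**
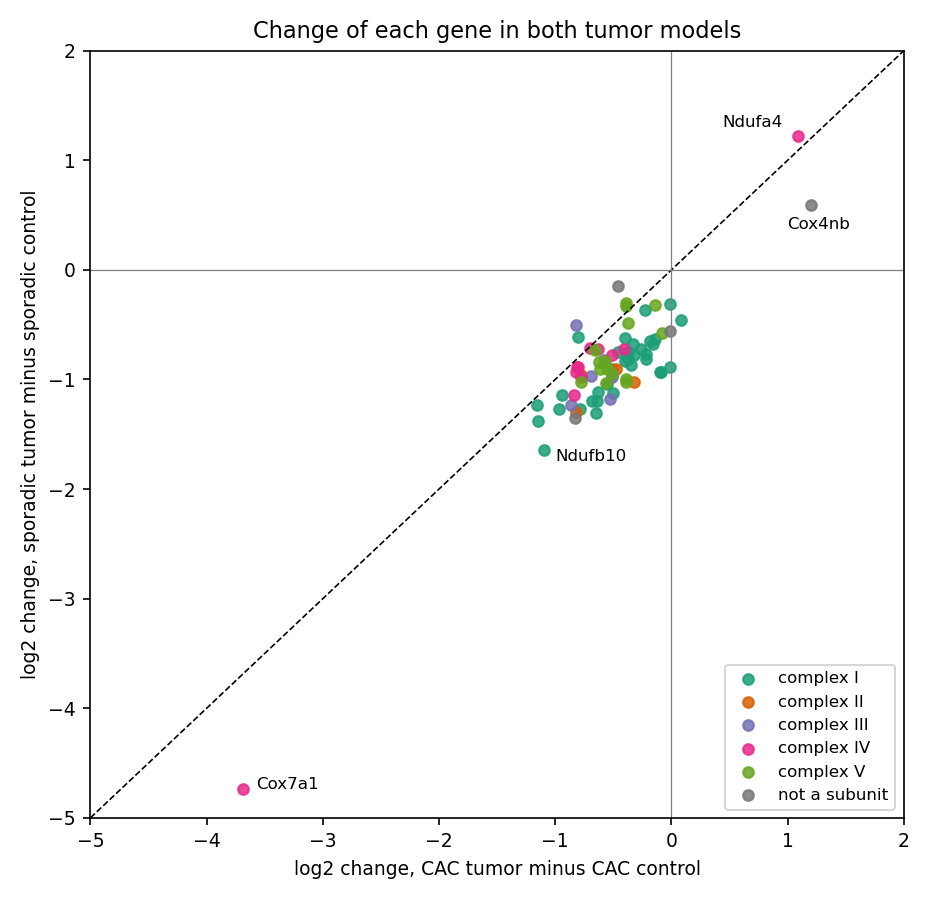
Log2 change of each gene with a mean of at least 32 in the CAC model (horizontal axis) against the sporadic model (vertical axis), 1 point per gene, colored by complex, with a dashed line of equal change. Most points lie below the line and below 0 on both axes; Cox7a1 stands apart at -3.69 and -4.74, and Ndufa4 at 1.09 and 1.22.

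Other genes that feed or build the respiratory chain were counted from named lists. Over all probe sets, 25.6% were lower and 14.2% higher in CAC tumors and 28.2% lower and 17.8% higher in sporadic tumors, with medians of -0.05 and -0.04. Of 7 electron carriers and feeders, 5 fell and 1 rose in each model. Cytochrome c (Cycs) had 482, 865, 880 and 792 in CAC tumors, against 1270 and 1270 in CAC controls, and 617, 481, 555, 410 and 416 in sporadic tumors, against 1358, 1180 and 877 in sporadic controls (adjusted p = 0.0343 and 0.00123). Sulfide quinone oxidoreductase (Sqor, listed as Sqrdl), which passes electrons from sulfide to ubiquinone, had group means of 1491 in CAC tumors and 3894 in CAC controls, and of 886.1 in sporadic tumors and 3582 in sporadic controls (log2 -1.38 ± 0.22 and -2.02 ± 0.18, adjusted p = 0.000475 and 6.17e-06). Gpd2, the mitochondrial glycerol phosphate dehydrogenase, was the one that rose (1.02 ± 0.19 and 2.06 ± 0.16). Of 20 assembly factors measured of 30 listed, 7 fell and 2 rose in CAC tumors, near the shares over all probe sets, and 10 fell and 2 rose in sporadic tumors (medians -0.20 and -0.53). Ndufaf5 fell (-0.62 ± 0.18 and -1.97 ± 0.15) and Sdhaf1, which serves complex II, rose (1.33 ± 0.20 and 0.76 ± 0.17).
Of 14 tricarboxylic acid cycle genes, 7 fell in CAC tumors and 10 in sporadic tumors, and none rose. Citrate synthase (Cs) had 1636, 1587, 1602 and 1660 in CAC tumors, against 4635 and 4819 in CAC controls (-1.54 ± 0.06, adjusted p = 2.61e-09). It had 1485, 1459, 1569, 1553 and 1308 in sporadic tumors, against 3291, 3308 and 3164 in sporadic controls (-1.14 ± 0.05, adjusted p = 1.09e-08). Suclg2 fell as well (-1.67 ± 0.25 and -1.98 ± 0.21). Of 12 genes of pyruvate entry measured of 15, 7 fell and 0 rose in CAC tumors, and 8 fell and 2 rose in sporadic tumors. Pdk2, a kinase that holds back pyruvate dehydrogenase, fell (log2 changes of -3.02 ± 0.24 and -2.79 ± 0.20), and so did pyruvate carboxylase (Pcx, -2.76 ± 0.26 and -3.16 ± 0.22).
Of 18 nuclear regulators of mitochondrial genes, 6 fell and 2 rose in CAC tumors, and 6 fell and 3 rose in sporadic tumors, which is near the shares over all probe sets (medians -0.18 and -0.10). Ppargc1b (PGC-1beta), a coactivator of mitochondrial biogenesis, had 21, 23, 20 and 11 in CAC tumors, against 199 and 135 in CAC controls (-3.18 ± 0.32, adjusted p = 2.06e-05). It had 8, 7, 10, 13 and 9 in sporadic tumors, against 102, 142 and 111 in sporadic controls (-3.67 ± 0.27, adjusted p = 1.16e-06), where its sporadic tumor mean of 9.19 lies near the lower end of the scale and the size of the fall is uncertain. Esrra, which encodes the nuclear receptor that these coactivators bind, fell too (-1.34 ± 0.18 and -1.86 ± 0.15), and so did Ppargc1a (-1.70 ± 0.48 and -1.30 ± 0.40). Pprc1, the related coactivator known from proliferating cells, had 159, 171, 193 and 97 in CAC tumors, against 18 and 39 in CAC controls (2.50 ± 0.34, adjusted p = 0.000167). It had 156, 155, 174, 138 and 164 in sporadic tumors, against 57, 53 and 34 in sporadic controls (1.74 ± 0.28, adjusted p = 0.000474). The related coactivators thus moved in opposite directions, and Myc rose beside Pprc1 (2.12 ± 0.18 and 2.24 ± 0.15). The Nrf1 probe set was dim, at 17 to 25 on all arrays, so that a change could have been missed. Nrf1 changed by 0.12 ± 0.13 and 0.01 ± 0.11 and Gabpa by -0.13 ± 0.30 and 0.41 ± 0.25, none of which passed (adjusted p = 0.538, 1.0, 0.848 and 0.221).
Of 23 carriers and import factors, 9 fell and 8 rose in CAC tumors, and 10 fell and 4 rose in sporadic tumors. The ADP/ATP carriers, which exchange the product of complex V across the inner membrane, split. Slc25a4, the form known from heart and muscle, had 1628, 1238, 1224 and 1006 in CAC tumors, against 84 and 108 in CAC controls (3.72 ± 0.20, adjusted p = 8.44e-08), and 2078, 2324, 1534, 1992 and 1958 in sporadic tumors, against 97, 86 and 73 in sporadic controls (4.53 ± 0.17, adjusted p = 2.37e-09). Slc25a5, the form known from proliferating cells, had 7768, 7402, 6657 and 7758 in CAC tumors, against 11178 and 11611 in CAC controls (-0.63 ± 0.09, adjusted p = 0.000301). It had 6856, 5751, 6440, 7345 and 6502 in sporadic tumors, against 9988, 11162 and 10917 in sporadic controls (-0.70 ± 0.08, adjusted p = 2.86e-05). The chaperonin Hspd1 rose in both (1.33 ± 0.22 and 0.66 ± 0.19).

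**Figure D5:**
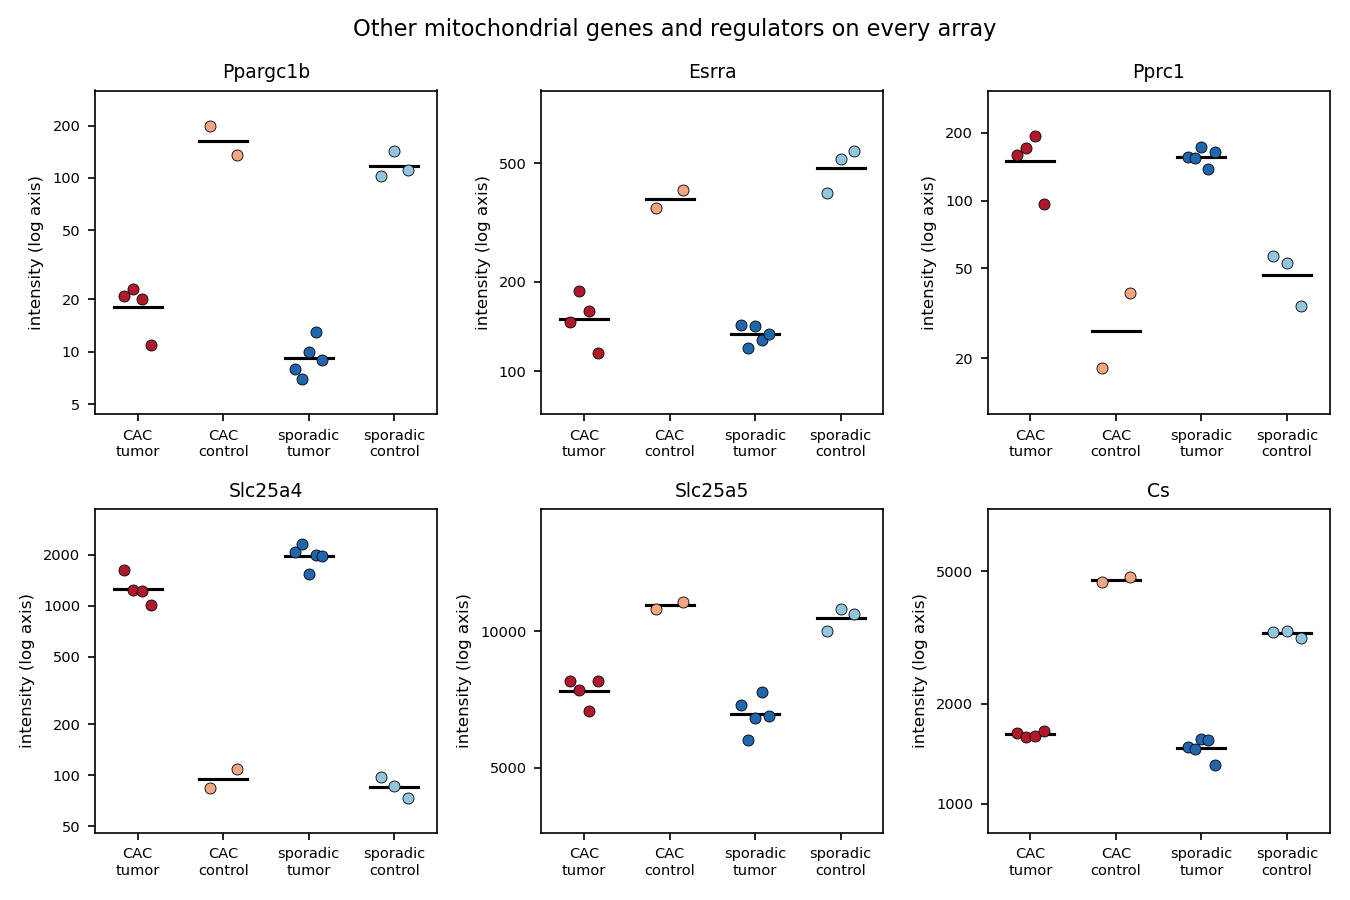
Intensity (log axis) of 6 other mitochondrial genes and regulators on each array, with CAC tumor, CAC control, sporadic tumor and sporadic control from left to right; points are arrays and bars are geometric means. Ppargc1b, Esrra, Slc25a5 and Cs are lower in both kinds of tumor, and Pprc1 and Slc25a4 are higher, with no overlap between tumors and their controls.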

How the data were processed

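RNA from 4 CAC tumors, 2 pools of CAC control epithelium, 5 sporadic tumors and 3 pools of sporadic control epithelium was hybridized to 1-colour Affymetrix arrays, per the labels. The deposited intensity values of 22690 probe sets were computed by the authors with GCRMA, per the submitters' processing notes, no version being named. They are linear whole numbers between 2 and 31599, and 0 values differ between the deposited table and the series value table. The deposited table also holds, per the file headers, the authors' fold change (a ratio) with a direction and a corrected p-value for tumor against control in each model, from a test that no source here names.

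After 64 control probe sets were removed, log2 intensity without an offset was fitted for 22626 probe sets and all 14 arrays with 4 group means in limma 3.58.1 (R 4.3.3; lmFit, then eBayes; 10 residual degrees of freedom and 0.543 from the prior). In each of 5 comparisons p-values were adjusted over all probe sets (Benjamini-Hochberg), and a probe set passed at 0.05. Errors after ± are standard errors of the contrast. Group means are geometric. The script was tested on simulated data. The number of arrays limits the precision, and control values come from pools.

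The members and lists were chosen with earlier results of these data known. Genes were named by a rule: the 4 largest changes of each complex and model, all of complex II, isoforms of 1 position, the largest calls of the remaining comparisons, members that moved against the rest, genes that are no subunit, and up to 3 genes of each list; Ndufs1, Atp5b and some genes of the other lists (Cycs, Nrf1, Gabpa, Slc25a5 and others) were chosen after their values were seen. Names matched older symbols through the RefSeq gene table. Alternatives were other thresholds, quantile normalization, eBayes with trend and robust options, fits to the compared groups alone, a block for replicate number, 1 probe set per gene, removal of less specific or dimmer probe sets, an offset of 16, centred arrays and each array left out.

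Further marker lists gave, higher and lower in CAC tumors and then in sporadic tumors, 3 and 0, then 4 and 0 of 8 for endothelium, 2 and 2, then 2 and 0 of 7 for lymphocytes, 0 and 3, then 0 and 5 of 5 for goblet cells, 1 and 3, then 1 and 2 of 5 for epithelium, and 0 and 4, then 0 and 6 of 10 for striated muscle, where nearly all values lie near the lower end of the scale. Over all probe sets the shares were 14.2% and 25.6%, then 17.8% and 28.2%. Some of these counts, such as the lower lymphocyte markers in CAC tumors, were near them.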

Additional observations from a re-analysis of the deposited data

Results flagged for a closer look

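Some members had an array that stood far from the others of its group, as judged by the gap to the nearest array over the range of the group (95% Dixon value), which chance gives in about 1 of 20 groups; 104 groups were looked at. Ndufa6 had 694 in CAC tumor 2, with the other CAC tumors at 832 to 849. Ndufb7 had 1021 in CAC tumor 1, with the others at 1209 to 1242. Ndufb11 (its dimmest probe set) had 850 in sporadic tumor 4, with the others at 667 to 710. Cox4i2 had 5 in sporadic tumor 4 and Atp5s had 27 in CAC tumor 1, both low signals in which 1 rounded unit counts.

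The tumor change differed between the models, by the test of the difference itself, for 19 members higher and 4 lower. The 6 largest that passed were the following. Cox7a2l gave 1.13 and 0.95 for 2 of its probe sets, Ndufb11 0.88, Ndufs8 (a dimmer probe set) 0.73, Sdhc 0.69 and Ndufb8 0.66, each the CAC change minus the sporadic change in log2. All were less deep in the CAC model, and the calls of Ndufb8, Sdhc and the probe set of Cox7a2l at 0.95 were lost under many of the alternatives. Uqcrc1, also at 0.66, passed as well. For Cox7a2l, Ndufb11 and Sdhc the CAC controls also lay below the sporadic controls (-1.54, -0.49 and -1.26 on the log2 scale). The dimmer Sdhc probe set passed neither for the change nor between the controls.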

How the results depend on the processing

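More members fell than rose in both models under all alternatives run; counts of calls moved as follows, and where no construction shows why, the cause was not tested. In CAC tumors against CAC controls, 90 members fell; 6 did at 2-fold, 50 of the genes with 1 probe set per gene, 40 with less specific probe sets left out, and 63 to 92 without 1 array, while 2 to 3 rose. In sporadic tumors against sporadic controls, 135 fell. The same settings gave 44, 73 and 61, and 129 to 135 without 1 array, while 2 to 3 rose, or 1 at 2-fold. With 1 probe set per gene (80 genes) or less specific probe sets left out, here and below, fewer members were fitted. Smaller counts there are therefore not only lost calls. Over all 22626 probe sets, 1402 and 1829 fell at 2-fold. With 1 probe set per gene, 3380 and 3882 of 13095 fell, and without less specific ones 4124 and 4393 of 15605. Centring (added after seeing the data) gave 123 and 136, where 10325 and 7172 of all 22626 probe sets fell.

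Differences between the models moved more, and under centring the counts over all probe sets moved too, as given above. CAC tumors against sporadic tumors had 24 members higher and 5 lower: 11 and 1 at an adjusted p under 0.01, 0 and 0 at 2-fold, 13 and 3 with 1 probe set per gene, 11 and 3 without less specific ones, 56 higher when centred, 1 lower with only the groups compared, and 17 to 26 higher and 2 to 6 lower without 1 array (2 lower without CAC tumor 3, 3 lower without CAC tumor 1, sporadic tumor 3, 4 or 5, or any sporadic control). CAC controls against sporadic controls had 31 lower and 5 higher: 9 lower at 0.01, 4 and 0 at 2-fold, 20 lower with quantile normalization, 15 with only the groups compared, 15 without less specific ones, 20 and 0 without the dimmer probe sets, 18 and 17 when centred, 0 higher with 1 probe set per gene or with only members of a mean of at least 32, and 12 to 35 lower and 4 to 6 higher without 1 array (12 without CAC control 1, 20 without sporadic control 1). The change itself was higher in the CAC model for 19 and lower for 4: 6 higher at 0.01, 1 and 0 at 2-fold, 11 and 2 with quantile normalization, 10 and 0 with 1 probe set per gene, 7 higher without less specific ones, 2 and 0 without the dimmer ones, 10 higher when centred, 0 lower with only members of a mean of at least 32, and 10 to 22 higher and 3 to 5 lower without 1 array (10 without CAC tumor 3, 12 without CAC tumor 4, 11 without sporadic tumor 5).

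Groups share replicate numbers, but same-numbered arrays did not deviate together (r = -0.0246 and -0.0294 for CAC, 0.0481, 0.00449 and -0.0874 for sporadic arrays). With the replicate number as a block, 75 and 127 members fell and 2 and 2 rose in tumors, 9 were higher and 2 lower between tumors, 15 lower and 4 higher between controls, and 9 higher and 3 lower for the change. The series value table is identical and gave no alternative.

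For genes named by the rule, 128 results under an alternative no longer passed, 12 newly passed, 1817 stayed on their side and 0 reversed. The differences of change of Ndufb8, Sdhc and Cox7a2l (its dimmest probe set) and the calls of Atp5s, Atp5g3 and Cox6b2 were lost most often. The call of Atp5g1 in CAC tumors was lost under many alternatives too. Precision is limited by 2 CAC controls, pooled animals and rounding at low signal.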
